A study of Homo sapiens with 6 samples.

Results

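Most of the genes described here encode enzymes that add methyl groups to lysine residues of histones, called writers, or take them off, called erasers. They were chosen by symbol as a list of 42 genes, 25 writers and 17 erasers, in the table of read counts per gene. The genes listed as writers include KMT2E, not known as an active writer, and SETD3, best known as an actin histidine methyltransferase. Every count, median and share of writers below includes both. The table held 63299 entries, of which 58037 lay on assembled chromosomes and 21101 passed the filter on low counts. All 42 genes passed that filter, with between 65 and 17357 reads in a library. Older symbols are kept where the table used them, so that WHSC1 is NSD2 and WHSC1L1 is NSD3. A further 6 copies of EHMT2 on alternative scaffolds held 0 reads and were not used.

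Histone lysine methylation marks regions of the genome by their state. Methylation of H3K4 lies at active promoters and enhancers, of H3K36 and H3K79 along transcribed genes, and of H3K9 and H3K27 in silenced chromatin. Most writers carry a SET domain, and DOT1L does not. The erasers fall into flavin-dependent enzymes, which act on lower methylation states, and Jumonji enzymes, which use iron and oxoglutarate. In prostate cancer cells several erasers, among them KDM1A, KDM3A and members of the KDM4 family, are known as partners of the androgen receptor.

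Gene expression was measured by RNA sequencing in LNCaP, an androgen-dependent line from a human prostate cancer. The cells carried a doxycycline-inducible hairpin against MEP50, the product of WDR77. MEP50 forms a complex with PRMT5, an enzyme that methylates arginines of histones and other proteins. The knockdown group was given doxycycline and the control group carried the same hairpin without the drug, with 3 libraries each. No library with doxycycline and no hairpin was analysed here, so the drug and the knockdown cannot be told apart. The knockdown libraries held 18568002, 36001219 and 20682236 counts in replicates 1, 2 and 3, and the control libraries 27509105, 29943841 and 36234784. WDR77 held 15.05, 14.03 and 12.73 CPM (reads of the gene after all libraries are set to equal size) in the knockdown libraries, against 49.28, 47.16 and 36.71 CPM in the controls, a log2 fold change of -1.67 (SE 0.16, adjusted p = 0.00131). PRMT5 held 149, 142 and 144 CPM in knockdown libraries, against 227, 205 and 197 CPM in controls. It was also called lower (log2 fold change -0.53, SE 0.11, adjusted p = 0.0268). That call was lost without any 1 of the knockdown libraries, and without control replicate 1 or control replicate 3. All 8 luminal prostate markers were detected in every library. PTPRC, the defining leukocyte marker, held 0 or 1 read. Of the basal markers, KRT5 held 0 reads in all 6 libraries, TP63 held 0 or 1 read, and KRT14 held 0, 0 and 5 reads in knockdown libraries, against 20, 20 and 39 reads in controls, and was called lower (adjusted p = 0.0338). The luminal markers summed to 2806, 2897 and 2737 TPM in knockdown libraries, against 4140, 4721 and 5036 TPM in controls, and the leukocyte list, through LYZ, to between 1.15 and 1.92 TPM in knockdown libraries, against 0.176 to 0.308 TPM in controls. Their part in the results below was not tested.

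Log2 fold changes are knockdown minus control, sizes of rises and falls are on that log2 scale, and p-values are from edgeR's quasi-likelihood F test, adjusted over all 21101 tested genes by Benjamini-Hochberg, with an adjusted p under 0.05 counted as called. The main fit ignored the replicate number. Libraries with the same number deviated from their group means together, with correlations of 0.64, 0.43 and 0.44 over all tested genes, and a second fit took the number as a block and is given where it changed a call. Block fits that left out 1 pair had fewer libraries still, so their p-values lean heavily on variance estimated across genes. Over the 42 genes alone these correlations were 0.87, 0.28 and 0.35, and knockdown replicate 3 correlated more with control replicate 2 (0.49) than with its own number. Control replicate 2 stood apart for genes rich in G and C. Its log2 CPM minus the mean of the other two controls correlated with the GC content of the longest coding transcript over the 42 genes (r = 0.63, rho = 0.51) and over 13423 tested coding genes (r = 0.54, rho = 0.51). These correlations are descriptions, since every gene shares the same 3 control libraries. Because these are bulk libraries, fewer cells of a type and less RNA per cell cannot be told apart.

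**Figure D1:**
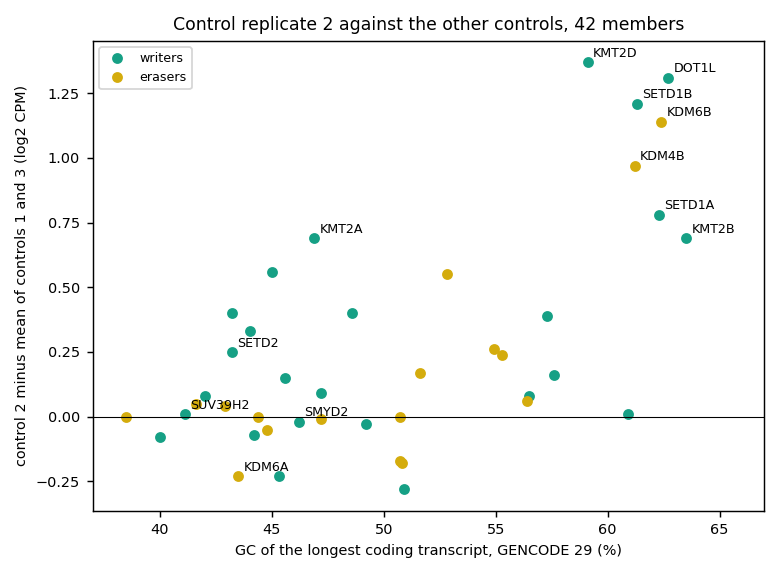
Control replicate 2 minus the mean of control replicates 1 and 3 (log2 CPM, vertical axis) against the GC content of the longest coding transcript (percent, horizontal axis), with 1 point for each of the 42 genes. The labelled points include KMT2D at 1.37, DOT1L at 1.31, SETD1B at 1.21 and KDM6B at 1.14.

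Of the 42 genes, SMYD2 alone was called in the main fit, and it fell. None was called higher (0 of 42) and 1 was called lower, against 2.72% of all tested genes called higher and 4.88% called lower. At an unadjusted p under 0.05 in the same test, 6 were higher and 5 lower, against 2194 and 3025 of all 21101 tested genes. Counts at this threshold given below for classes and lists stand against the same background. DESeq2 called 2 higher and 1 lower, and limma-voom called 0 higher and 2 lower. In either direction, DESeq2 called 11.1% of all tested genes and limma-voom 7.79%. Counts from these 2 fits given below stand against those shares. With the replicate block, 7 were called higher and 5 lower (16.7% and 11.9%), against 11.2% and 14.9% of all tested genes. Those higher were the writers KMT2C, ASH1L and KMT2E and the erasers KDM3A, KDM4A, KDM6B and KDM7A. Those lower were the writers SUV39H1, WHSC1, SETD3, SETD7 and SMYD2. In either direction, 1 of the 42 (2.38%) was called in the main fit, against 7.6% of all tested genes. With the block 12 were called, a share near the background of 26.1%.

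The median log2 fold change was 0.02 over the 25 writers, with a range from -0.996 to 0.48, and 0.08 over the 17 erasers, with a range from -0.27 to 0.83. Over all tested genes the median was 0.00. The 15 erasers with a KDM symbol had a median of 0.17, with 11 values positive and 4 negative. For the 17 erasers the median was 0.15 with the block. Among writers 13 values were positive and 12 negative, and among erasers 11 were positive and 6 negative. With the block, 3 writers were called higher and 5 lower (12% and 20%), and 4 erasers were called higher and 0 lower (23.5% and 0%), against 11.2% and 14.9% of all tested genes. With lists of this length, a few genes set these shares, and the called genes among the writers include KMT2E and SETD3. In the main edgeR fit 3 of the 17 erasers were higher and 0 lower at an unadjusted p under 0.05, against 2194 and 3025 of all 21101 tested genes. DESeq2 and limma-voom called 0 erasers lower. Whether writers and erasers differed from each other was not tested, since the list was drawn up with results of these data known.

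**Figure D2:**
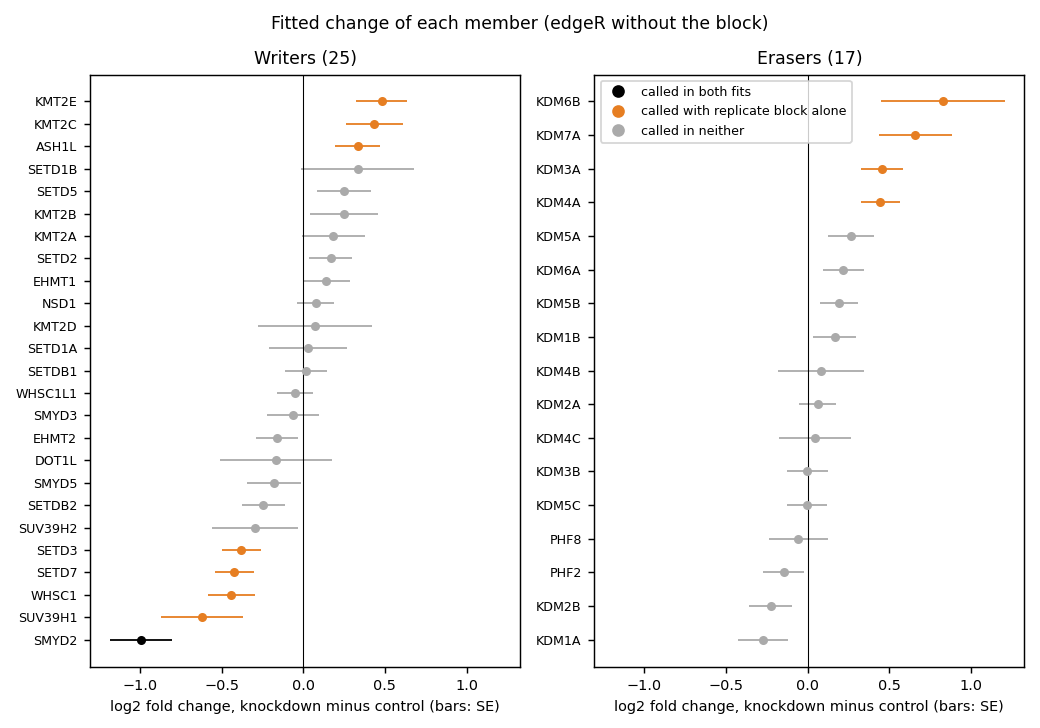
Log2 fold change, knockdown minus control, of each of the 25 writers (left) and 17 erasers (right) from the edgeR fit without the block, with bars of 1 SE. SMYD2 at -0.996 is the only gene called in both fits, and the 11 orange genes were called with the replicate block alone.

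Levels between genes were compared as TPM, the share of a library's transcripts after correction for exon length. KDM6A, an H3K27 eraser, stood highest at 206 TPM in knockdown and 177 TPM in control libraries. KDM4A followed at 90.8 TPM in knockdown cells, against 66.9 TPM in controls, and SETD7 at 71.7 TPM in knockdown cells, against 96.1 TPM in controls. The order of these last 2 genes differed between the groups: KDM4A lay above SETD7 in every knockdown library and below it in every control library. By mean level in controls, KDM1A at 69.3 TPM lay between them. SMYD2 had the lowest mean level, 2.13 TPM in knockdown and 4.26 TPM in control libraries. The COMPASS-type H3K4 writers ranged from 6.59 TPM for SETD1A to 35.7 TPM for KMT2C in knockdown cells, against 6.25 TPM for SETD1B to 26.8 TPM for KMT2C in controls. The summed level of the 42 genes was 1271, 1363 and 1493 TPM in the knockdown libraries and 1203, 1513 and 1297 TPM in the controls, and these ranges overlap.

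**Figure D3:**
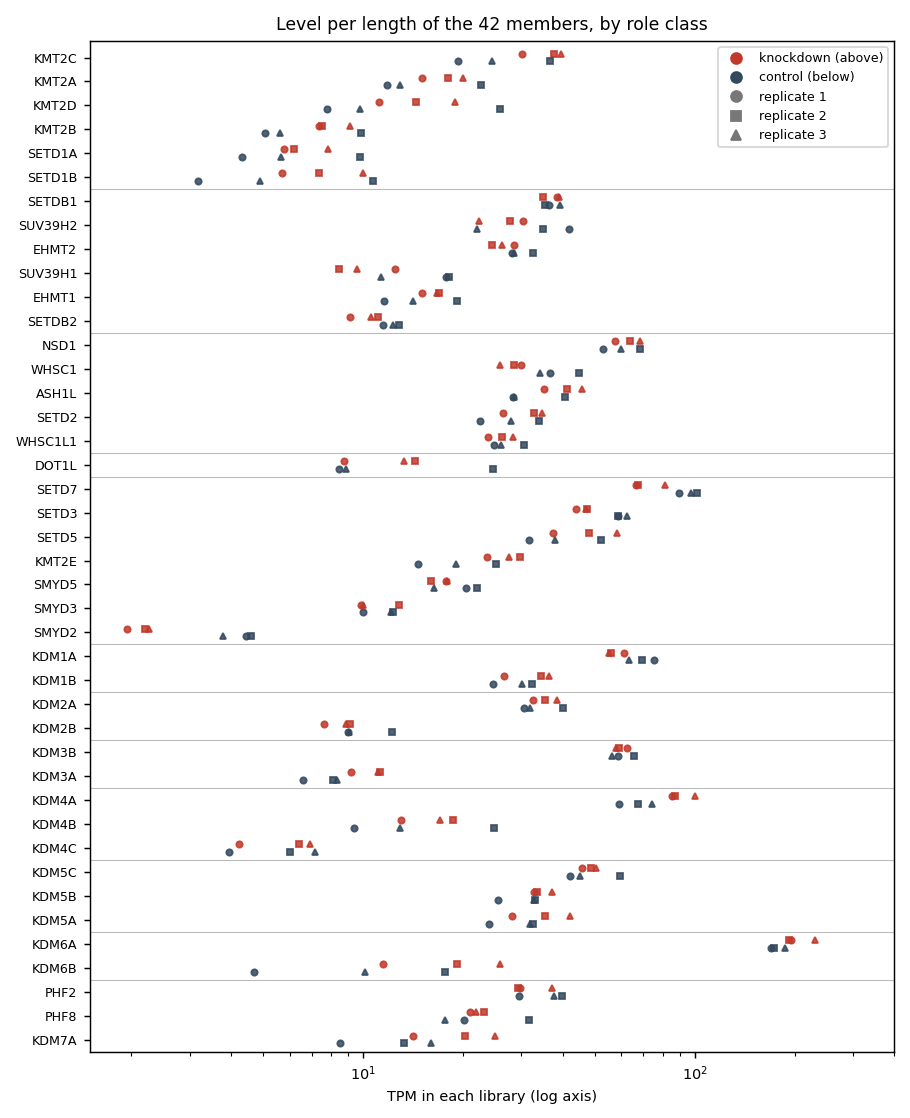
TPM in each library (log axis) for the 42 genes, grouped by role class between the grey lines, with knockdown drawn above control for each gene and the symbol shape giving the replicate number. KDM6A has the highest mean in both groups and SMYD2 the lowest, although SMYD2 lies above SETD1B, KDM4C and SETD1A in control replicate 1, and the control square of replicate 2 lies right of the other controls for KMT2D, SETD1B, DOT1L and KDM4B.

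The COMPASS-type writers set H3K4 methylation. KMT2A and KMT2B act at promoters, KMT2C and KMT2D at enhancers, and SETD1A and SETD1B place most trimethylation at active promoters. All 6 fitted values were positive, with a median of 0.22, yet the main fit called 0 of 6, with 1 higher at an unadjusted p under 0.05, and DESeq2 and limma-voom called 0. KMT2C (ENSG00000055609.17, chromosome 7, 152134922 to 152436005, hg38, as are all positions below) held 222, 259 and 255 CPM in the knockdown libraries, against 145, 231 and 168 CPM in the controls. Only control replicate 2 reached the knockdown range. Its fitted change on the log2 scale was 0.43 (SE 0.18, adjusted p = 0.165), and with the block it rose by 0.46 (adjusted p = 0.0101). KMT2C has near-identical copies of some exons elsewhere in the genome, so its counts are less certain. Without replicate pair 1 the block fit lost this call (adjusted p = 0.11).

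KMT2B held 27.7, 26.4 and 30.3 CPM in knockdown cells, against 19.4, 31.8 and 19.8 CPM in controls, with a log2 fold change of 0.25 (adjusted p = 0.5). Control replicate 2 was its highest library. KMT2D had a wider spread, with 84.3, 101 and 125 CPM in knockdown cells and 59.7, 167 and 68.7 CPM in controls. It was highest in control replicate 2 and lowest in the other two controls, and its log2 fold change was 0.07 (adjusted p = 0.927). KMT2D shares exon bases with PRKAG1 on the same strand, over 1.09% of its exon length. SETD1B held 17.5, 20.9 and 26.7 CPM in knockdown cells and 9.93, 27.9 and 13.9 CPM in controls (log2 fold change 0.33, adjusted p = 0.593). KMT2A and SETD1A had log2 fold changes of 0.18 and 0.03, and neither was called.

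The class turned on replicate pair 2. The median difference of the 6 genes between libraries of the same number was 0.50 and 0.60 on the log2 scale in pairs 1 and 3, and -0.34 in pair 2. In a block fit without pair 2, chosen after seeing the data, all 6 were called higher, with log2 fold changes of 0.45 for KMT2A, 0.58 for KMT2B, 0.63 for KMT2C, 0.70 for KMT2D, 0.41 for SETD1A and 0.90 for SETD1B. That fit called 17 of the 42 genes higher and 7 lower, against 17.9% and 18.4% of its 20385 tested genes. Without pair 1 the block fit called 3 of the 42 higher and 3 lower, against 6.18% and 8.04% of all genes it tested, and without pair 3 it called 6 higher and 4 lower, against 9.11% and 12.3%. The GC contents of KMT2B, SETD1A, SETD1B and KMT2D were 63.5%, 62.3%, 61.3% and 59.1%. KMT2A and KMT2C had lower GC contents, 46.9% and 45.0%, and still stood above the other two controls in control replicate 2, by 0.69 and 0.56 on the log2 scale, where KMT2B stood 0.69 above. Over the 42 genes, the difference of control replicate 2 from the other controls also correlated with log2 exon length (r = 0.38, rho = 0.44). Over 13423 tested coding genes that correlation was r = 0.04 (rho = 0.09). The part of GC content or exon length in the class's values was not tested.

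H3K9 writers had a median log2 fold change of -0.20, with 4 of 6 values negative. The main fit called 0 of 6, with 1 lower at an unadjusted p under 0.05, and DESeq2 and limma-voom called 0. SUV39H1 (ENSG00000101945.16, chromosome X, 48695554 to 48709012), which trimethylates H3K9 in constitutive heterochromatin, held 15.5, 9.76 and 10.4 CPM in knockdown libraries, against 22.5, 19.2 and 13.0 CPM in controls. Within each replicate pair the knockdown value was the lower, although knockdown replicate 1 lay above control replicate 3. The fitted log2 change was -0.62 (SE 0.25, adjusted p = 0.164), and with the block it fell by 0.62 (adjusted p = 0.00835). This call held in each block fit that left out 1 pair (adjusted p from 0.000828 to 0.0272). An antisense gene, AF196970.3, overlaps 20.3% of its exon bases, and reads of the 2 cannot be told apart if the counting ignored strand.

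SUV39H2, its close relative, held 39.7, 33.8 and 25.6 CPM in knockdown cells and 55.8, 39.0 and 26.9 CPM in controls, with a log2 fold change of -0.30 (adjusted p = 0.53). Replicate 3 was its lowest library in both groups. SETDB2 held 22.4, 25.4 and 22.8 CPM in knockdown cells, against 28.8, 26.8 and 28.0 CPM in controls. Its ranges did not overlap, but the change was small (log2 fold change -0.24, adjusted p = 0.299). EHMT1 and EHMT2, which together mono- and dimethylate H3K9 in euchromatin, had log2 fold changes of 0.14 and -0.16. SETDB1, which silences repeats with TRIM28, had a log2 fold change of 0.02, and 13.4% of its exon bases are shared with the opposite-strand gene CERS2.

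H3K36 writers had fitted values on both sides of 0, with a median of 0.08 and 0 of 5 called in the main edgeR fit. At an unadjusted p under 0.05, 1 was higher and 1 lower, and DESeq2 and limma-voom called 0. WHSC1 (ENSG00000109685.17, chromosome 4, 1871424 to 1982207), which dimethylates H3K36, held 218, 193 and 165 CPM in knockdown libraries, against 271, 279 and 232 CPM in controls. Every knockdown value lay below every control value. The means were 192 ± 26.6 CPM in knockdown and 260.3 ± 25.2 CPM in control libraries (SD, n = 3 each), for a log2 fold change of -0.44 (SE 0.14, adjusted p = 0.0941). With the block WHSC1 fell by 0.45 (adjusted p = 0.00594), also with any 1 pair left out (adjusted p from 0.001 to 0.0418).

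ASH1L (ENSG00000116539.11, chromosome 1, 155335268 to 155562807), a Trithorax-group H3K36 writer, went the other way. It held 172, 188 and 197 CPM in knockdown libraries, against 142, 170.2 and 130.2 CPM in controls, and the ranges did not overlap, with knockdown replicate 1 just above control replicate 2. The fitted log2 change was 0.33 (SE 0.14, adjusted p = 0.167), and with the block it rose by 0.34 (adjusted p = 0.0375). That call was lost without pair 1 (adjusted p = 0.117) and without pair 3 (adjusted p = 0.342). SETD2, the H3K36 trimethylase, had a log2 fold change of 0.17, and NSD1 and WHSC1L1 had 0.08 and -0.05. None of these 3 was called in either fit.

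DOT1L, the H3K79 writer, held 36.3, 55.5 and 48.1 CPM in knockdown libraries, against 35.8, 87.2 and 34.1 CPM in controls. Control replicate 2 was far above the other 5 libraries. The log2 fold change was -0.17 (SE 0.34, adjusted p = 0.808). Without pair 2 the block fit gave 0.28 (adjusted p = 0.0392), the opposite sign, so its direction turned on that pair.

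SMYD2 (ENSG00000143499.13, chromosome 1, 214281102 to 214337131) carries a SET and a MYND domain and is known to methylate p53 and other proteins beside histones. It held 3.48, 3.68 and 3.57 CPM in knockdown libraries, from 65, 136 and 78 reads, against 8.11, 7.03 and 6.31 CPM in controls, from 209, 211 and 221 reads. The knockdown values lay close together and all under every control. The means were 3.58 ± 0.0981 CPM in knockdown and 7.15 ± 0.907 CPM in control libraries (SD, n = 3 each), which is 1.99-fold lower. The main fit gave a log2 fold change of -0.996 (SE 0.19, adjusted p = 0.0176) and the block fit gave -0.99 (adjusted p = 0.00116). Left-out libraries moved the fold change from -1.08 to -0.85, and 3 of these 6 fits lost the call, those without the knockdown library of replicate 2, the knockdown library of replicate 3 and the control library of replicate 1 (adjusted p up to 0.0687). DESeq2 and limma-voom called it too (adjusted p = 0.00102 and 0.0184).

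SETD7 (ENSG00000145391.13, chromosome 4, 139495941 to 139606699) monomethylates H3K4 and many proteins that are not histones. It held 340.0, 322 and 364 CPM in knockdown libraries, against 467, 443 and 464 CPM in controls, and the groups did not overlap. The means were 342 ± 21.4 CPM in knockdown and 458 ± 12.8 CPM in control libraries (SD, n = 3 each). On the log2 scale the fitted change was -0.42 (SE 0.12, adjusted p = 0.0608), and with the block it fell by 0.42 (adjusted p = 0.00915). The block call was lost without pair 1 (adjusted p = 0.156), and limma-voom, which ignores the pairs, called it lower (adjusted p = 0.0454).

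SETD3 (ENSG00000183576.12, chromosome 14, 99397746 to 99480889), a SET domain protein best known as an actin histidine methyltransferase, held 83.4, 83.9 and 78.7 CPM in knockdown libraries and 114, 95.4 and 111 CPM in controls. All knockdown values were below all controls. Fitted over all libraries, its log2 fold change came to -0.38 (SE 0.12, adjusted p = 0.088), and with the block it fell by 0.37 (adjusted p = 0.017). The block fit lost it without pair 1 or pair 3 (adjusted p = 0.215 and 0.105), and the main fit called it without control replicate 2 (adjusted p = 0.0496).

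KMT2E (ENSG00000005483.20, chromosome 7, 105014179 to 105114361) carries a SET domain and binds trimethylated H3K4, but is not known as an active writer. It held 80.5, 93.7 and 82.0 CPM in knockdown libraries, against 50.7, 72.9 and 60.2 CPM in controls, without overlap. Its fitted log2 change was 0.48 (SE 0.15, adjusted p = 0.0929), and with the block it rose by 0.49 (adjusted p = 0.00384). The call was lost without pair 1 (adjusted p = 0.0672), and KMT2E shares 1.06% of its exon bases with the opposite-strand gene SRPK2. The main fit called it higher without control replicate 2 (adjusted p = 0.0433). Of the remaining genes with a SET domain, SETD5 had a log2 fold change of 0.25, SMYD3 -0.06 and SMYD5 -0.18. None of these 3 was called in either fit.

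Promoter windows of 300 bases, 250 before and 50 after the start, are shown for the writer called in both fits, SMYD2, and for 2 writers whose windows hold words of cell-cycle promoters, WHSC1 (NSD2) and SUV39H2. Sequences are RefSeq's on GRCh38.p14, 5′ to 3′ along the gene's strand, which is the plus strand for all 3. Capitals mark an E2F word (TTTCCCGC, TTTGGCGC or TTTCGCGC) or a CHR word (TTTGAA or TTCGAA), searched on both strands. The windows are chr1:214280909-214281208 for SMYD2, chr4:1871143-1871442 for WHSC1 and chr10:14878616-14878915 for SUV39H2.
SMYD2: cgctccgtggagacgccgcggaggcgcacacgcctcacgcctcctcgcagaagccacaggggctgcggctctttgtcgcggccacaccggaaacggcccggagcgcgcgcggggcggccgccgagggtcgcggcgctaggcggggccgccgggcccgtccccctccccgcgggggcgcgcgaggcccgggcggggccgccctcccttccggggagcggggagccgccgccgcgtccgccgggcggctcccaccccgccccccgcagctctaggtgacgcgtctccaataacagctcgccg
WHSC1: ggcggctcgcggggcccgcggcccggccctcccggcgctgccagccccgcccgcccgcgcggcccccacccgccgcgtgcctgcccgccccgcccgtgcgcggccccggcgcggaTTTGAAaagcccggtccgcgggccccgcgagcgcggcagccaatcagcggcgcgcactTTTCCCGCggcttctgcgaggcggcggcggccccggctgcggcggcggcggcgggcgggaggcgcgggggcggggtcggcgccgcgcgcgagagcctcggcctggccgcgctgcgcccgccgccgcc
SUV39H2: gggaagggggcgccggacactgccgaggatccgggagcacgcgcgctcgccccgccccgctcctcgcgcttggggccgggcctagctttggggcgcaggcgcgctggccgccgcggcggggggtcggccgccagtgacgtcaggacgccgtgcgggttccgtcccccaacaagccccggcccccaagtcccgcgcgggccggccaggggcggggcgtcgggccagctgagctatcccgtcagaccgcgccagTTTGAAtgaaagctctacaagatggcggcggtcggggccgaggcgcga

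The SMYD2 window is 80.7% G and C and holds neither kind of word. The WHSC1 window, 86.7% G and C, holds TTTGAA upstream of TTTCCCGC. The SUV39H2 window, 76.3% G and C, holds TTTGAA alone. Over the 39 of the 42 genes found in the table, 2 of 54 windows held an E2F word (3.7%, in KDM1B and WHSC1), against 2.74% of all 35116 windows. A CHR word was in 4 of 54 (7.41%, in KDM2A, WHSC1, PHF8 and SUV39H2), against 16.4% of all windows. In 9 of 10 proliferation markers found, 5 of 12 windows held an E2F word (41.7%) and 4 a CHR word (33.3%). A match is a description of the letters in these windows and not of a bound site.

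Proliferation markers were lower beside these changes. All 10 had negative log2 fold changes, with a median of -0.94, and the main fit called 2 of them lower (20%), against 4.88% of all tested genes. The block fit called all 10 lower, against 14.9% of all tested genes. Their summed level was 1093, 905.3 and 580.6 TPM in the knockdown libraries, against 1934, 1687 and 1051 TPM in the controls, so knockdown replicate 1 stood above control replicate 3. The part of proliferation in the writers' values was not tested.

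**Figure D4:**
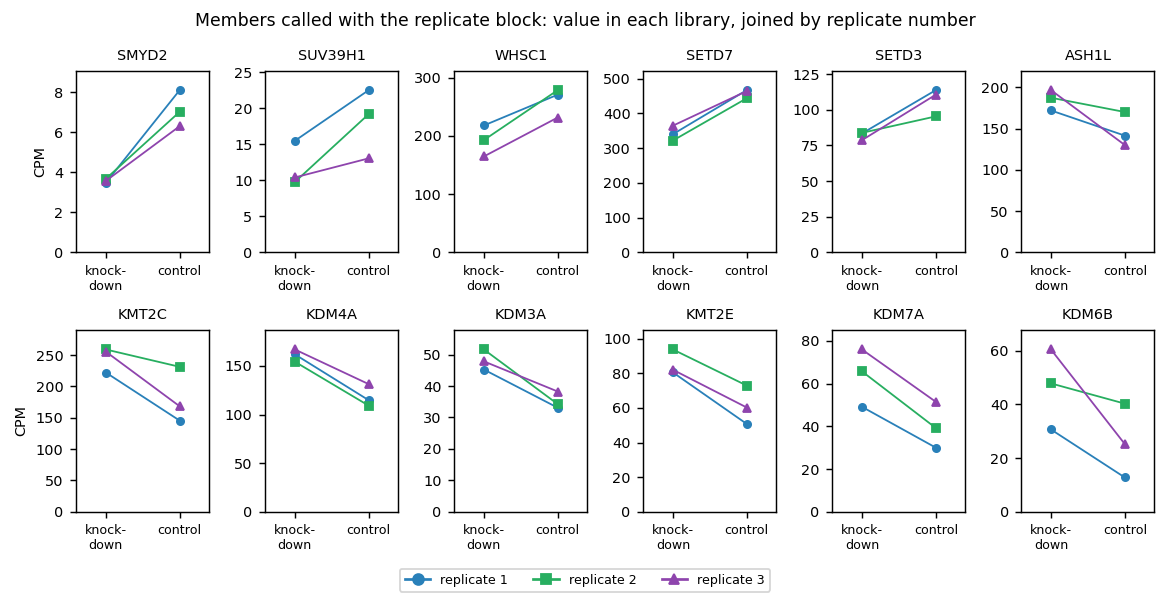
CPM in each library of the 12 genes called with the replicate block, knockdown left and control right, with lines joining libraries of the same replicate number. Every line slopes one way within a panel, from the 5 genes lower in knockdown cells, such as SMYD2, to the 7 higher, such as KDM6B.

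The flavin erasers act on mono- and dimethylated H3K4, and neither was called in either fit. KDM1A, also known as LSD1, held 122, 104 and 96.3 CPM in knockdown libraries, against 153, 119 and 117 CPM in controls. Each knockdown library lay below the control of its number, but knockdown replicate 1 lay above 2 of the controls. The log2 fold change was -0.27 (adjusted p = 0.3; with the block 0.0563). Without pair 2 the block fit called KDM1A lower (log2 fold change -0.29, adjusted p = 0.01745). KDM1B held 44.8, 54.2 and 53.9 CPM in knockdown cells and 42.5, 46.5 and 47.3 CPM in controls (log2 fold change 0.17, adjusted p = 0.474).

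KDM2A and KDM2B bind unmethylated CpG islands and act on H3K36. KDM2B, the larger in change, held 38.4, 42.7 and 39.3 CPM in knockdown libraries, against 46.1, 52.5 and 42.5 CPM in controls. Its ranges overlapped slightly, and it was not called (log2 fold change -0.23, adjusted p = 0.332). KDM2A held 124, 125 and 129 CPM in knockdown cells and 119, 130.3 and 113 CPM in controls (log2 fold change 0.06, adjusted p = 0.781).

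KDM3A (ENSG00000115548.16, chromosome 2, 86440647 to 86492716) removes mono- and dimethylation of H3K9 and is a known coactivator of the androgen receptor. It held 45.2, 51.6 and 47.9 CPM in knockdown libraries, against 33.1, 34.2 and 38.3 CPM in controls, with no overlap. The means were 48.2 ± 3.21 CPM in knockdown and 35.2 ± 2.71 CPM in control libraries (SD, n = 3 each), for a log2 fold change of 0.46 (SE 0.13, adjusted p = 0.0657). With the block it rose by 0.46 (adjusted p = 0.0083), also with any 1 pair left out (adjusted p from 0.00178 to 0.0491). DESeq2 called it higher (adjusted p = 0.0496). KDM3B, its paralog, held 183, 161 and 149 CPM in knockdown cells and 175, 164 and 154 CPM in controls and was not called (adjusted p = 0.999). Whether the paralogs differed was not tested.

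KDM4A (ENSG00000066135.12, chromosome 1, 43650158 to 43705515) acts on trimethylated H3K9 and H3K36. It held 162, 154 and 167 CPM in knockdown libraries, against 115, 109 and 131 CPM in controls, and every knockdown value was higher. The means were 161 ± 6.34 CPM in knockdown and 118 ± 11.5 CPM in control libraries (SD, n = 3 each). Its fitted log2 change was 0.44 (SE 0.12, adjusted p = 0.0569), and with the block it rose by 0.45 (adjusted p = 0.00463). Without pair 1 the block fit gave an adjusted p of 0.0562. The antisense gene KDM4A-AS1 overlaps 8.97% of its exon bases. KDM4B held 70.5, 93.9 and 80.6 CPM in knockdown cells and 51.9, 114 and 65.1 CPM in controls, with control replicate 2 again the highest (log2 fold change 0.08, adjusted p = 0.879). KDM4C had a log2 fold change of 0.04. The table lists 2 further genes on its strand, RP11-146B14.1 and AL513412.1, that share 32.1% and 24.1% of its exon bases and hold 0 reads, so its count and TPM are less certain.

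The KDM5 enzymes remove H3K4 trimethylation, which at active promoters is placed mostly by SETD1A and SETD1B among the COMPASS-type writers. None of the 3 was called in the main fit or with the block. In the main fit none had an unadjusted p under 0.05, and with the block KDM5A had an unadjusted p of 0.0182 (adjusted p = 0.0637). The block fit called KDM5A higher without pair 2 (adjusted p = 0.0219). KDM5A held 125, 147 and 164 CPM in knockdown libraries, against 108, 123 and 132 CPM in controls (log2 fold change 0.26, adjusted p = 0.286). KDM5B held 146, 138 and 145 CPM in knockdown cells, against 116, 125 and 135 CPM in controls (log2 fold change 0.19, adjusted p = 0.338). The KDM5B ranges did not overlap and the KDM5A ranges did. The summed level of the 3 was 106.5, 117.5 and 129.7 TPM in knockdown libraries, against 91.6, 124.7 and 109.6 TPM in controls. The 6 COMPASS-type writers summed to 75.1, 91.1 and 105.2 TPM in knockdown libraries, against 51.4, 115.6 and 63.3 TPM in controls. In both sums control replicate 2 was the highest control. Neither sum measures enzyme activity.

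The KDM6 enzymes remove H3K27 methylation, the Polycomb mark. KDM6B (ENSG00000132510.10, chromosome 17, 7839904 to 7854796), an inducible enzyme, held 30.6, 47.8 and 60.4 CPM in knockdown libraries, against 12.8, 40.2 and 25.2 CPM in controls. The groups overlapped, since control replicate 2 lay above knockdown replicate 1, while each knockdown library lay above the control of its number. The log2 fold change was 0.83 (SE 0.38, adjusted p = 0.218), and with the block it rose by 0.91 (adjusted p = 0.0023), also with any 1 pair left out. Its log2 differences within the pairs were 1.23, 0.24 and 1.25, and its block log2 fold change without pair 2 was 1.28. KDM6A held 512, 469 and 531 CPM in knockdown cells and 455, 388 and 457 CPM in controls, just without overlap, and was not called in either fit (log2 fold change 0.22, adjusted p = 0.326).

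The KDM7 family joins a PHD finger that binds trimethylated H3K4 to a Jumonji domain. KDM7A (ENSG00000006459.10, chromosome 7, 140084746 to 140177035), which acts on H3K9 and H3K27, held 49.2, 65.8 and 76.0 CPM in knockdown libraries, against 30.0, 39.2 and 51.5 CPM in controls. Control replicate 3 lay above knockdown replicate 1, and each pair differed alike, by 0.70, 0.74 and 0.56 on the log2 scale. The fitted log2 change was 0.66 (SE 0.22, adjusted p = 0.105), and with the block it rose by 0.67 (adjusted p = 0.000476), also with any 1 pair left out (adjusted p from 5.04e-08 to 0.0027). DESeq2 called it without the block (adjusted p = 0.0455). PHF2 held 60.8, 55.9 and 66.4 CPM in knockdown cells, against 61.6, 69.3 and 71.8 CPM in controls (log2 fold change -0.15, adjusted p = 0.515). PHF8 had a log2 fold change of -0.06, and neither was called in either fit.

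Writers made up a smaller share of the summed TPM of the 42 genes in every knockdown library. The share was 46.5%, 47.3% and 46.2% in the knockdown libraries, against 50%, 52% and 48.2% in the controls, and the groups did not overlap. The means were 46.7% ± 0.549 in knockdown and 50.1% ± 1.91 in control libraries (SD, n = 3 each), a difference of -3.39 percentage points. KDM6A and SETD7, 2 of the most abundant genes, weigh on this share. Without them, a choice made after seeing the data, it was 52%, 52.3% and 51.6% in knockdown libraries, against 54.2%, 55.4% and 52.2% in controls. Knockdown replicate 2 then reached just above control replicate 3, and the difference was -1.96 points. No test was run on the share, since the list was drawn up with results of these data known.

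**Figure D5:**
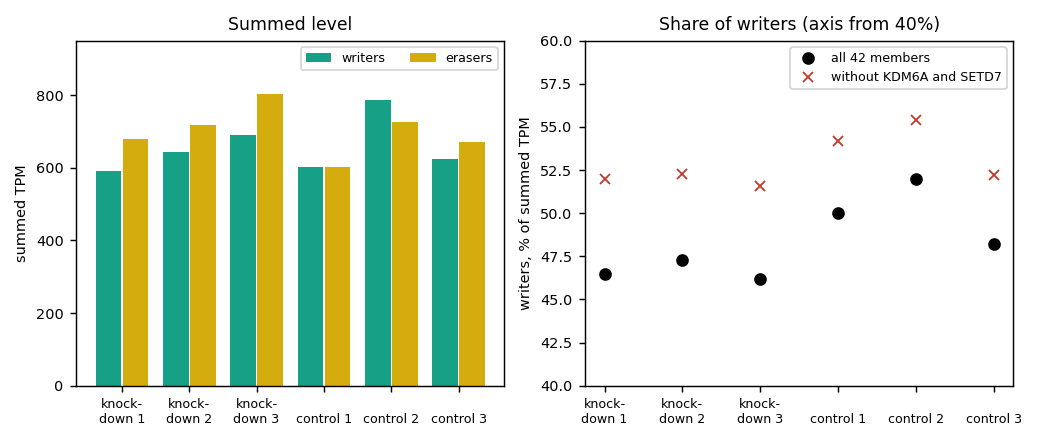
Left, summed TPM of the 25 writers and the 17 erasers in each library. Right, the writers' percentage of the sum over all 42 genes (dots, from 46.2% to 47.3% in knockdown and 48.2% to 52% in control libraries) and without KDM6A and SETD7 (crosses), on an axis that starts at 40%.

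Group ranges of CPM did not overlap for 11 of the 42 genes (26.2%), against 30.4% of all tested genes. Of these, 6 were higher in knockdown cells (ASH1L, KMT2E, KDM3A, KDM4A, KDM5B and KDM6A) and 5 lower (SETDB2, WHSC1, SETD3, SETD7 and SMYD2). KMT2C, KDM6B, KDM7A and SUV39H1 were called with the block although their ranges overlap.

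Genes of the complexes these enzymes work in were described from 5 lists. Of 15 COMPASS and MLL complex partners, 1 was called lower and 0 higher (6.67% and 0%), against 4.88% and 2.72% of all tested genes. The median log2 fold change of the list was -0.22, against 0.00 over all tested genes. With the block, 2 were higher and 7 lower (13.3% and 46.7%), against 11.2% and 14.9% of all tested genes. DESeq2 called 3 lower (PSIP1, ASH2L and MEN1) and limma-voom 1. In either direction, DESeq2 called 11.1% of all tested genes and limma-voom 7.79%. PSIP1, a chromatin tether of the MLL complex, held 72.1, 65.3 and 58.7 CPM in knockdown libraries, against 120.2, 90.2 and 123 CPM in controls, and fell by 0.77 (SE 0.15, adjusted p = 0.0203). Fits without either of knockdown replicates 2 and 3, or either of control replicates 1 and 3, lost the PSIP1 call (adjusted p up to 0.0887). ASH2L, a core subunit, had a log2 fold change of -0.53 (adjusted p = 0.052) and fell in the fit with the block (adjusted p = 0.00345).

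Of 17 tested genes among 20 other lysine methyltransferases and demethylases, 1 was called higher and 0 lower (5.88% and 0%), against 2.72% and 4.88% of all tested genes. With the block 4 were higher and 1 lower (23.5% and 5.88%), against 11.2% and 14.9% of all tested genes. The median log2 fold change of the list was 0.07. JARID2, a Jumonji protein without known demethylase activity that joins Polycomb complexes, held 69.4, 61.6 and 75.0 CPM in knockdown libraries, against 32.5, 40.3 and 43.2 CPM in controls. It rose by 0.83 (SE 0.15, adjusted p = 0.0135), and the call was lost without knockdown replicate 3 (adjusted p = 0.0572). KMT5B, an H4K20 writer, had a log2 fold change of 0.32 (adjusted p = 0.121) and rose with the block (adjusted p = 0.0309), a call lost without pair 1 or pair 3 (adjusted p = 0.264 and 0.0592).

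The 3 remaining lists had no call in the main edgeR fit, where 2.72% of all tested genes were called higher and 4.88% lower. With the block the shares of all tested genes were 11.2% and 14.9%. The block shares were 10% and 30% of the DOT1L and elongation partners and 27.3% and 0% of the LSD1 complex partners. They were 0% and 11.1% of the H3K9 silencing partners. Among 10 DOT1L and elongation partners, 0 were higher and 2 lower at an unadjusted p under 0.05, DESeq2 called 1 lower and limma-voom 0, and the block fit called 1 higher and 3 lower, with a median of 0.06. MLLT1, a reader of acetylated histones in the elongation complex, had a log2 fold change of -0.80 (adjusted p = 0.052), and the elongation factor SUPT6H had a log2 fold change of -0.37 (adjusted p = 0.086). Both fell with the block (adjusted p = 0.00445 for MLLT1 and 0.0153 for SUPT6H), and the SUPT6H call was lost without pair 1 (adjusted p = 0.125). Among 11 LSD1 complex partners, 2 were higher at an unadjusted p under 0.05, DESeq2 and limma-voom called 0, and the block fit called 3 higher, with a median of 0.03. RCOR2, a corepressor that binds LSD1, had a log2 fold change of 1.04 (adjusted p = 0.0507) and rose with the block (adjusted p = 0.0127), a call lost without pair 1 (adjusted p = 0.0768). Its level was low, with 33, 55 and 40 reads in knockdown libraries, against 18, 23 and 34 reads in controls. PHF21A, a reader of unmethylated H3K4, had a log2 fold change of 0.49 (adjusted p = 0.183) and rose with the block (adjusted p = 0.0157), a call lost without pair 1 or pair 3 (adjusted p = 0.0695 and 0.136). Among 9 H3K9 silencing partners, 1 was lower at an unadjusted p under 0.05, DESeq2 and limma-voom called 0, and the block fit called 1 lower, with a median of 0.10. That gene was TRIM28, the corepressor of KRAB zinc finger proteins, with a log2 fold change of -0.34 (adjusted p = 0.193; with the block 0.0425), and the block call was lost whichever pair was left out (adjusted p from 0.0524 to 0.166). ATF7IP, the partner of SETDB1, had a log2 fold change of 0.22 (adjusted p = 0.312).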

How the data were processed

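The authors deposited whole-number read counts per gene for 6 libraries. Per the submitters' processing notes, the tools were bcl2fastq, STAR 2.5, featureCounts of Subread 1.6.5 and edgeR 3.20.8, with the hg38 build. The strand setting and the annotation release are not given in the sources used here, so reads of genes that overlap on opposite strands may be mixed. Counts were tested here in R 4.3.3 with edgeR 4.0.16 (TMM scaling, filterByExpr with the group, quasi-likelihood F test, two-sided, Benjamini-Hochberg over 21101 genes, adjusted p under 0.05). Alternatives used DESeq2 1.42.0 and limma-voom (limma 3.58.1), other scalings, no low-count filter, left-out libraries and the replicate number as a block. SE is the fold change divided by the square root of its F value. CPM used TMM library sizes, and TPM used the deposited exon length. GC content was that of the longest coding transcript in GENCODE 29, and promoter windows were RefSeq's.

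The series design text calls the replicates biological. Nothing says that a number marks a shared culture, and the pairing was checked from the data. The correlations of same-numbered libraries were 0.64, 0.43 and 0.44, and those of differently numbered ones -0.43 to 0.06, over all tested genes. Deviations from a group mean cancel within the group, so positive values for the same number push the others negative. The values for different numbers are therefore no independent check. Over the 42 genes alone they were 0.87, 0.28 and 0.35 for the same number and -0.80 to 0.49 for different numbers. Taking the number as a block lowered the fitted biological coefficient of variation to 11.9%, against 20.8% in the main fit, on 2 and 4 residual degrees of freedom. Block fits without 1 pair had fewer residual degrees of freedom than the block fit on all libraries. No 2 libraries had equal counts in more than 1.89% of genes.

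The genes, role classes, lists and tests were chosen with earlier results of these data known. Values per library are given for genes called in either fit and for the 2 genes of smallest unadjusted p in each class, and added for KMT2D, SETD1B and SUV39H2 after their values were seen. A search of protein sequences was planned and not run.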

Additional observations from a re-analysis of the deposited data

How the results depend on the processing

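The count of called genes depended on the pairing. Higher calls among the 42 were 0, against 7 with the replicate block and 2 each under upper-quartile scaling, without the low-count filter and with DESeq2. Lower calls were 1, against 5 with the block and 2 each without the filter and with limma-voom. Writers had 0 higher and 1 lower, against 3 and 5 with the block, and 2 lower without the filter or with limma-voom. Erasers had 0 higher, against 4 with the block and 2 each under upper-quartile scaling, no filter and DESeq2. Leaving out 1 library gave 0 to 2 higher and 0 to 2 lower calls. Leaving out 1 pair in the block fit gave 3 to 17 higher and 3 to 7 lower (writers 0 to 11 and 3 to 6, erasers 3 to 6 and 0 to 1), with the most calls without pair 2 and the fewest without pair 1.

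Main counts were 574 for all tested genes called higher and 1029 for all tested genes called lower. The counts were 894 and 722 under upper-quartile scaling, which shifted the median of all genes by 0.12, 1336 and 1812 without the filter, 898 higher with DESeq2, and 2358 and 3148 with the block. Without 1 library they ranged from 168 to 500 and from 329 to 923. In the block fit they were 1372 and 1786 without pair 1, 3648 and 3761 without pair 2, and 1948 and 2624 without pair 3. The erasers' median of 0.08 was 0.21 under upper-quartile scaling, 0.16 with limma-voom and 0.15 with the block, from 0.066 to 0.19 without 1 library and from 0.09 to 0.15 without 1 pair. The writers' median of 0.02 ranged from -0.07 to 0.09 without 1 library and from -0.09 to 0.12 without 1 pair.

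DOT1L reversed to 0.28, against -0.17, and HCFC1, a COMPASS partner, to 0.48, against -0.08, in the block fit without pair 2. The writers' share differed by -3.39 points with all 42 genes and by -1.96 without KDM6A and SETD7. The cause of these shifts was not tested. SMYD2 was called under every scaling, without the filter, with DESeq2, limma-voom and the block, and in 3 of the 6 fits without 1 library. SMYD2 held 65 reads in its lowest library, the fewest of any of the 42.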

Other observations

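The log2 exon length of the 42 genes and their log2 fold change correlated at r = 0.32 (rho = 0.31), against r = 0.07 (rho = 0.09) over 13423 tested coding genes. GC content and log2 fold change correlated at r = -0.02 (rho = -0.11) over the 42 genes. These are descriptions across genes that share the same libraries. MECOM, a zinc finger relative of the PRDM enzymes in the list of other methyltransferases, had a log2 fold change of 1.36 (adjusted p = 0.128; with the block 0.00536). DESeq2 without the block called it higher (adjusted p = 0.0258). Without knockdown replicate 1 its log2 fold change was 0.54, and without pair 1 the block call was lost (adjusted p = 0.0759). It held 8.996, 2.70 and 2.70 CPM in knockdown libraries, against 2.33, 1.20 and 2.03 CPM in controls, and was chosen after its values were seen.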
